A study of Homo sapiens with 12 samples.

Results

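The genes encoded by the mitochondrial DNA were followed in 2 triple-negative breast cancer cell lines with and without depletion of PACT. They were chosen by name, as every row of the count table whose gene name starts with MT-. Of the 57500 genes in the table, 35 met this rule: 13 mRNAs and 22 tRNAs, all on chromosome M of GRCh38 in GENCODE 29, which annotates 37 genes there. The ribosomal RNAs MT-RNR1 and MT-RNR2 were not analysed here. All 35 members passed the filter on low counts and were tested. PACT is the product of PRKRA and binds double-stranded RNA, and the study's title concerns its suppression of the kinase PKR. Total RNA depleted of rRNA was sequenced from 4 groups of 3 libraries, 12 in all. HCC1806 cells carried the control guide sgC1 or the PRKRA guide sgPACT-2, and MDA-MB-468 cells carried the control guide sgNTA or sgPACT-2, in each case delivered for CRISPR-Cas9 cutting. Both are established lines from tumours without hormone receptors or HER2 amplification. No time after guide delivery and no clonal status is given in the labels, and nothing says that the replicates of a group were separate cultures, so the p-values measure the spread between these libraries only.

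Human mitochondrial DNA is a compact circle without introns. Both strands are copied by the polymerase POLRMT into long precursors, from which tRNAs are cut out and the flanking mRNAs and rRNAs released. The heavy strand codes for 12 of the mRNAs and 14 of the tRNAs. The light strand codes for MT-ND6 and 8 tRNAs, and the rest of its transcript is antisense RNA that the degradosome of SUPV3L1 and PNPT1 removes, which keeps mitochondrial double-stranded RNA low. The 13 proteins are core subunits of respiratory complexes I, III, IV and V, and the tRNAs serve the mitochondrial ribosome that makes them.

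The tRNA results turn on the 5 tRNAs with the highest counts per kb and on 2 neighbouring ones that were near 0 in HCC1806. Their sequences, from the GENCODE 29 transcripts of GRCh38, are written 5′ to 3′ as DNA in the sense of the tRNA, with the anticodon in capitals.
MT-TN (asparagine, chrM:5657-5729, light-strand-coded): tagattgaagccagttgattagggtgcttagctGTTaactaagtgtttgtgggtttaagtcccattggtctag
MT-TC (cysteine, chrM:5761-5826, light-strand-coded): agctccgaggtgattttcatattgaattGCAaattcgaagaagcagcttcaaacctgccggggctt
MT-TY (tyrosine, chrM:5826-5891, light-strand-coded): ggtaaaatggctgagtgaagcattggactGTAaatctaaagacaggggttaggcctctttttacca
MT-TP (proline, chrM:15956-16023, light-strand-coded): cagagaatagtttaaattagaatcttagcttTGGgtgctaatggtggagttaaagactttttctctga
MT-TL2 (leucine, CUN codons, chrM:12266-12336, heavy-strand-coded): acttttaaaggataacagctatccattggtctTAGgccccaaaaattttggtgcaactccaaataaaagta
MT-TS1 (serine, UCN codons, chrM:7446-7514, light-strand-coded): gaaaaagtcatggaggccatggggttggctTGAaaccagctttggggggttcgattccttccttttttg
MT-TD (aspartate, chrM:7518-7585, heavy-strand-coded): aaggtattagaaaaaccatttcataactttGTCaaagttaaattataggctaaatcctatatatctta
MT-TN, MT-TC and MT-TY lie side by side in the tRNA cluster that holds the light-strand replication origin. MT-TS1 starts on the base after MT-CO1, and MT-TD ends on the base before MT-CO2. A pair of mRNAs also share sequence: the last 46 bases of MT-ATP8 (22.2% of the gene) are the first of MT-ATP6, at chrM:8527-8572, with the start codon of MT-ATP6 in capitals.
MT-ATP8 and MT-ATP6 overlap: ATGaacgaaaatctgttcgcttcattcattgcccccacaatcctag
MT-ND4L and MT-ND4 overlap by 7 bases. How the authors' counting treated reads in these overlaps is not given in the sources used here, so the levels of these 4 genes are uncertain by that much.

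The HCC1806 libraries totalled 18640633 to 24704877 counts, and those of MDA-MB-468 totalled 34581754 to 44790741. Mitochondrial genes took 11.6% to 15.0% of counts in the first line and 6.31% to 8.90% in the second. Levels are given as CPM, counts per 1000000 nuclear counts, where nuclear means all genes outside the member set and the nuclear total was scaled by TMM. Each mRNA held at least 17614 counts (MT-ND3) in every library, while tRNAs such as MT-TS2 held as few as 10 to 31. In HCC1806 PRKRA had 86.4, 92.9 and 80.7 CPM with sgC1 and 41.8, 40.1 and 40.9 with sgPACT-2 (log2 fold change -1.08, SE 0.10, adjusted p = 1.7e-05, edgeR quasi-likelihood test). The value in MDA-MB-468 was -0.20 (SE 0.10, adjusted p = 0.974), so depletion in that line rests on the label. Epithelial markers (EPCAM, KRT8, KRT18, KRT19, CDH1) summed to between 1504 and 3750 CPM, with lower sums in depleted HCC1806 (1504 to 1788) than in its controls (2061 to 2364). PGR was at most 0.330 CPM and ERBB2 139 to 234. Summed markers of leukocytes reached 2.43 CPM in HCC1806, while MDA-MB-468 had 86.0 to 119, nearly all CD14, with CD3E and LYZ at or near 0. Fibroblast markers summed to 18.8 to 55.4 CPM, nearly all COL1A1, with DCN at most 0.513, and endothelial markers to 1.59 to 4.51. The part of these marker values in the results below was not tested.

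In the HCC1806 controls the mitochondrial mRNAs covered a wide range of levels, given as CPM per kb of gene so that genes can be compared. MT-CO1, the catalytic subunit of complex IV, was the highest at 28277 ± 4718 CPM per kb (SD, n = 3), and its 3 values lay above all those of the next gene. MT-CO2, another complex IV core subunit, had 19528 ± 1183, and MT-ND4 of complex I had 18531 ± 2243, with overlapping libraries. MT-ATP6 and MT-ATP8 of the ATP synthase, complex V, followed at 14809 ± 2409 and 13999 ± 2628. MT-ND1, where complex I binds ubiquinone, had 12810 ± 1101. MT-ND4L (10360 ± 1464), MT-CO3 (7680 ± 757), MT-ND2 (6815 ± 750) and MT-ND5 (5952 ± 900), 3 of them complex I subunits, lay in the lower middle. The low end held MT-CYB, the only mitochondrial subunit of complex III, at 5002 ± 390, MT-ND6 at 3887 ± 699 and MT-ND3 at 2979 ± 375, and neighbours among these overlapped. The MDA-MB-468 controls had another order. MT-CO1 (19536 ± 2242) and MT-CO2 (18551 ± 2198) overlapped at the top, MT-CO3 came next at 10072 ± 759, and MT-ND1 stood at 7231 ± 936. MT-ND3 was again the lowest, at 2423 ± 221, and did not overlap its neighbour MT-ND6. In depleted MDA-MB-468 cells the top pair were MT-CO2 (16510 ± 602) and MT-CO1 (15120 ± 1735), again with overlapping libraries. In CPM, MT-CO1 alone gave 26.0% to 31.7% of all mitochondrial mRNA counts in the 12 libraries.

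**Figure D1:**
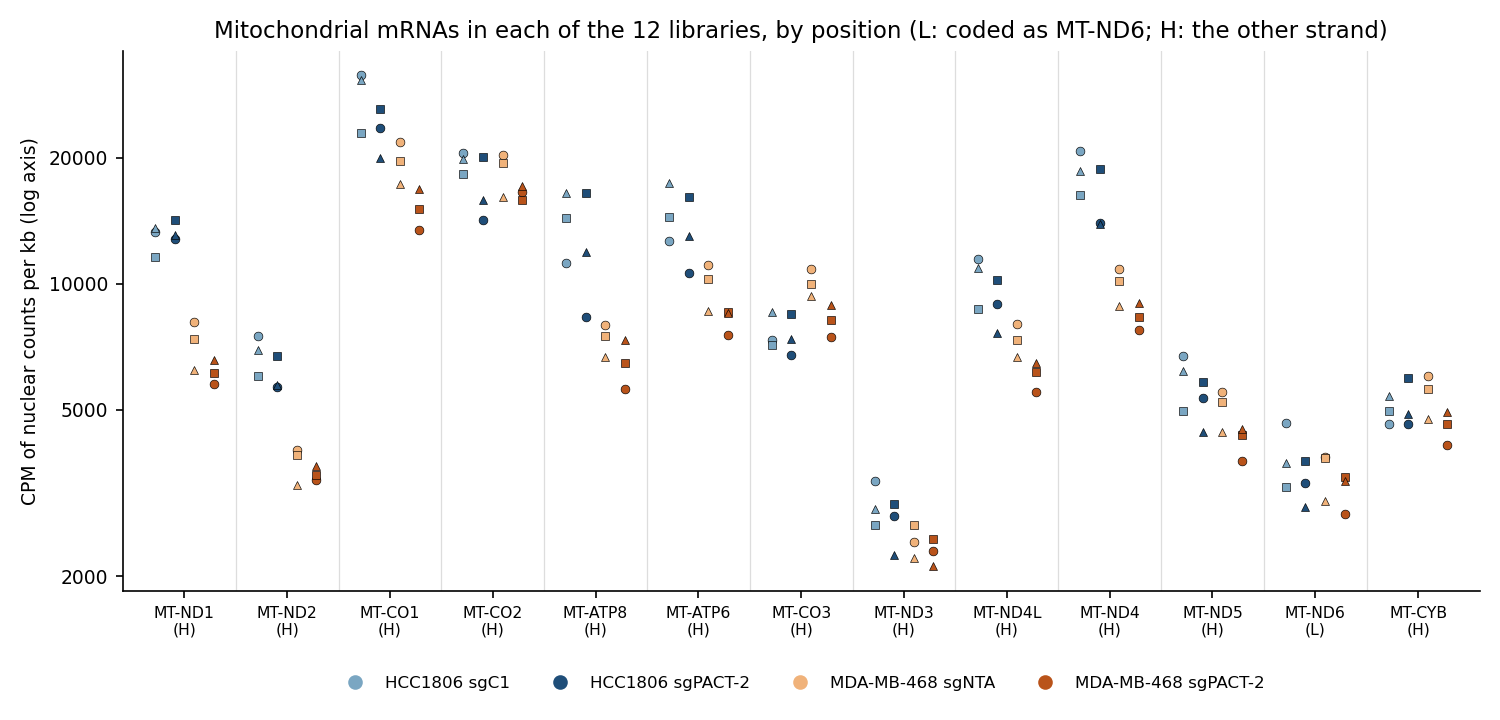
Level of each mitochondrial mRNA in each library, in CPM of nuclear counts per kb on a log axis; colours are groups, circles, squares and triangles are replicates 1, 2 and 3, and H or L gives the coding strand. MT-CO1 was the highest in HCC1806, MT-ND3 the lowest in both control groups, and MT-ND1, MT-ND2 and MT-ND4 of MDA-MB-468 lay below those of HCC1806.

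The comparison of depleted with control HCC1806 cells asked whether the mitochondrial transcripts moved when PACT was depleted. No mRNA passed the threshold of adjusted p under 0.05: 0 of 13 was called, beside 2.48% of all 27177 genes tested (299 higher and 376 lower). Of the 13 fold changes 11 were negative, against 49.3% of all tested genes, with a median of -0.20 on the log2 scale where all genes had 0.00. At an unadjusted p under 0.05 edgeR had 1 of 13, beside 14.5% of all genes, and DESeq2 had 0. MT-CO1 was measured at 48463, 35238 and 47109 CPM in controls and 36274, 40165 and 30782 in depleted libraries. Control replicate 2 lay below depleted replicates 1 and 2, so the groups overlapped (log2 fold change -0.29, SE 0.14, adjusted p = 0.339). The other complex IV mRNAs had -0.22 (MT-CO2) and -0.03 (MT-CO3). Complex I mRNAs ran from -0.25 (MT-ND4) to 0.06 (MT-ND1), MT-ATP6 and MT-ATP8 had -0.16 and -0.20, and MT-CYB had 0.04. Depleted and control libraries overlapped for all 13 mRNAs, where 16.6% of all tested genes had groups without overlap. Depleted replicate 2 was the highest of all 6 libraries for 3 mRNAs, and depleted replicates 1 and 3 were each the lowest for 6. Without depleted replicate 2 the median was -0.31 and without control replicate 1 it was -0.09, with 0 calls either way. The count at an unadjusted p under 0.05 in edgeR rose to 7 of 13 without depleted replicate 2, beside 3641 of 28408 genes. It was 6 of 13 without control replicate 2, beside 3652 of 28399. Leaving out any other HCC1806 library gave 0 or 1 of 13, beside 3392 to 5057 genes. Scaling by nuclear library size alone moved the median of all genes to 0.12 and that of the mRNAs to -0.07, and turned the split of calls to 626 higher and 178 lower (2.97% of all genes), with 10 of 13 mRNAs negative and MT-CO3 at 0.10. Relative to all genes the mRNA median was then -0.19, close to -0.20 in the main scaling.

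In MDA-MB-468 the same comparison gave 13 of 13 negative fold changes, against 51.1% of all tested genes, and again 0 calls, beside 0.169% of all genes. The median was -0.25 on the log2 scale, with all genes at -0.01. An unadjusted p under 0.05 was found for 5 mRNAs in edgeR, beside 5.2% of all genes, and for 5 in DESeq2, which called 0. MT-CO1 had 33549, 30192 and 26634 CPM in controls and 20654, 23284 and 26005 in depleted libraries, so every depleted value lay below every control value (log2 fold change -0.37, SE 0.14, adjusted p = 0.733). MT-CO3, the third core subunit of complex IV, had 8521, 7835 and 7335 CPM against 5839, 6433 and 6969, also without overlap (-0.30, SE 0.11, adjusted p = 0.734). MT-ATP6 (-0.28) and MT-ND4L (-0.28) were the other 2 of the 4 mRNAs whose groups did not overlap, beside 13.1% of all tested genes. The values nearest 0 were those of MT-ND3 (-0.08) and MT-ND2 (-0.09). Control replicate 1 was the highest of the 6 libraries for 12 mRNAs, and depleted replicate 1 was the lowest for 10. Leaving out either of these libraries left 13 of 13 negative. In both fits 0 mRNAs had an unadjusted p under 0.05 in edgeR, beside 1349 of 28449 and 1497 of 28492 genes. Without control or depleted replicate 2 it was 2 of 13 each, beside 1205 of 28361 and 1640 of 28391 genes. Without control or depleted replicate 3 it was 8 and 7 of 13, beside 1300 of 28398 and 1257 of 28373 genes. The spread between replicates differed between the lines: the biological coefficient of variation was 0.171 in the joint fit, 0.204 in HCC1806 alone and 0.0941 in MDA-MB-468 alone. With MDA-MB-468 fitted alone, MT-CO1 fell by 0.35 (SE 0.07, adjusted p = 0.00561) and MT-CO3 fell by 0.28 (SE 0.07, adjusted p = 0.0199), both on the log2 scale. Those were 2 of 13 mRNAs, beside 1.48% of 21404 genes in that fit. It had 10 of 13 mRNAs at an unadjusted p under 0.05, beside 2230 of the 21404 genes. The median of the mRNAs in MDA-MB-468 ranged from -0.33 without control replicate 3 to -0.18 without control replicate 1.

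The change differed between the lines for 0 of 13 mRNAs, beside 0.11% of all genes, and no mRNA had an unadjusted p under 0.05 for the difference in edgeR or DESeq2. The differences farthest from 0, MDA-MB-468 change minus HCC1806 change, were those of MT-ND1 (-0.30, SE 0.15, adjusted p = 0.618) and MT-CYB (-0.30, SE 0.17, adjusted p = 0.663).

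**Figure D2:**
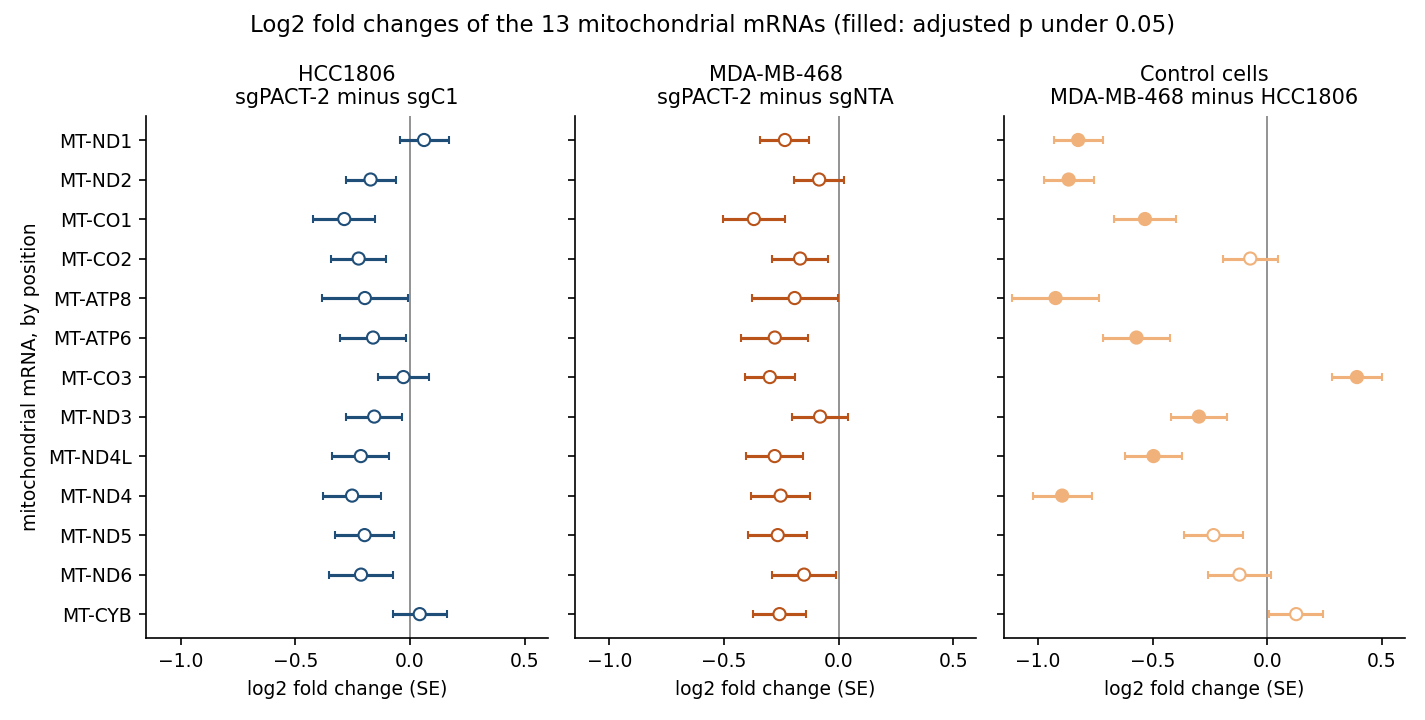
Log2 fold changes of the 13 mitochondrial mRNAs with their standard errors, depleted minus control in each line and MDA-MB-468 minus HCC1806 among control cells; filled points passed adjusted p under 0.05. All 13 values in MDA-MB-468 and 11 in HCC1806 lie below 0 without a call, and 8 lower and 1 higher mRNA passed between the lines.

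Summed over the 13 mRNAs, HCC1806 libraries held 152756, 125667 and 152046 CPM in controls and 117931, 144838 and 114475 in depleted cells. The groups overlapped through replicate 2 of each (fold 0.875, exact permutation p = 0.2, two-sided, where 3 against 3 cannot go below 0.10). MDA-MB-468 libraries held 114091, 105896 and 91605 CPM against 79310, 86383 and 92739, and overlapped through replicate 3 of each (fold 0.831, exact permutation p = 0.2). Over both lines together the sum was 0.853-fold in depleted cells, with an exact permutation p of 0.03 that became 0.40 after Benjamini-Hochberg adjustment over the 20 sums and ratios tested in this way. It was lower in 4 of 6 pairs of same-numbered libraries, and the exact sign-flip test of those pairs gave p = 0.125. No label says that same-numbered libraries are pairs, and in MDA-MB-468 they were not otherwise taken as such. With nuclear counts not scaled by TMM the log2 difference over both lines went from -0.23 to -0.15 (exact permutation p = 0.155). In bulk RNA of a cell line, a lower level in each cell and a change in the share of cells cannot be told apart.

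**Figure D3:**
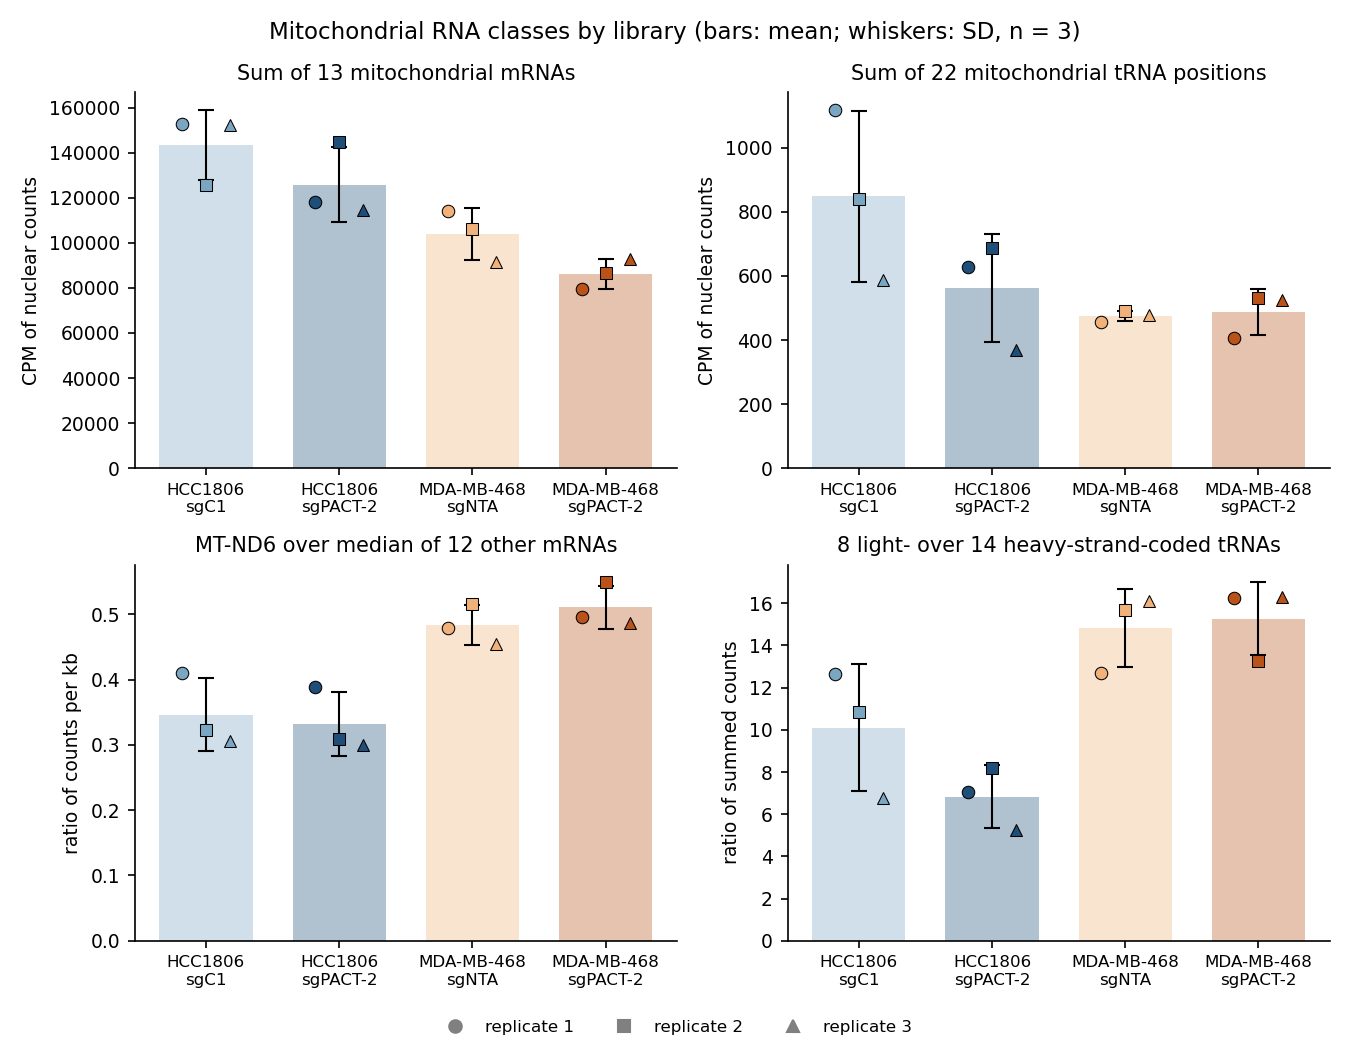
Sums of the mRNAs and of the tRNA positions in CPM of nuclear counts, and ratios of light- to heavy-strand-coded genes, by group; bars are means, whiskers SD (n = 3), and marker shape gives the replicate number. Depleted and control libraries overlapped in all 4 measures in both lines, while the MT-ND6 ratio of every MDA-MB-468 library lay above that of every HCC1806 library.

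The strands were compared next, and the counting limits what this can show. Short genes of 1 exon that lie in introns of well-expressed genes (at least 10000 counts) served as a check. At least 10 counts were found for 88.6% of 633 such genes on the strand of their host and for 92.1% of 994 on the opposite strand. The counting therefore did not separate strands, and the counts at MT-ND6 include any reads of the antisense heavy-strand transcript there, just as those at every other member include light-strand RNA. Counts per kb at MT-ND6, a membrane subunit of complex I, were divided by the median of the other 12 mRNAs in the same library. The ratios were 0.410, 0.323 and 0.306 in HCC1806 controls and 0.389, 0.309 and 0.300 in depleted cells, in both groups with replicate 1 highest. In MDA-MB-468 they were 0.479, 0.516 and 0.454 in controls against 0.496, 0.549 and 0.486. The groups overlapped in both lines (log2 differences -0.06 and 0.08, exact permutation p = 0.6 and 0.4). By number, the ratio was lower in 3 of 3 pairs in HCC1806, where the numbers were taken as pairs. In MDA-MB-468, where they were not, it was lower in 0 of 3. The exact sign-flip p was 0.25 in each line, the smallest that 3 pairs allow. The difference between the lines had an exact permutation p of 0.43. The change of MT-ND6 itself was -0.21 (log2) in HCC1806 (SE 0.14, adjusted p = 0.547) and -0.15 in MDA-MB-468 (SE 0.14, adjusted p = 1). Between control cells the ratio was 1.40-fold higher in MDA-MB-468 and the 3 libraries of each line did not overlap (exact permutation p = 0.10, the smallest possible, adjusted 0.40). Its direction depended on the reference: against MT-CYB alone, the next mRNA on the map, the log2 difference was -0.24 instead of 0.49.

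At the tRNA positions a count is a read assigned to the position and need not come from a mature tRNA. MT-TN took 40.0% to 67.5% of these counts, and all 22 positions held 0.322% to 0.727% of the mitochondrial counts. Depletion changed 0 of 22 tRNAs in HCC1806, beside the 2.48% of all genes, with 3 at an unadjusted p under 0.05 in edgeR, beside the 14.5% of all genes, and 2 in DESeq2. In MDA-MB-468 it was 0 of 22, with 1 at an unadjusted p under 0.05 by either tool, beside 5.2% of all genes. The median log2 fold changes were -0.09 and -0.08. For the difference between the lines it was 0 of 22 as well, with 1 at an unadjusted p under 0.05 in edgeR, beside 8.43% of all genes, and 0 in DESeq2. MT-TN showed the smallest p-value in HCC1806. It was measured at 737, 512 and 261 CPM in controls and 308, 366 and 148 in depleted libraries. Each depleted library lay below the control library of its number, but the spread within the groups was as wide as the gap between them (log2 fold change -0.88, SE 0.30, adjusted p = 0.15). In HCC1806 the deviations of same-numbered libraries from their group means correlated at 0.345, 0.200 and 0.106. Control replicate 2 correlated more with depleted replicate 3 (0.230), and no label says that same-numbered libraries are pairs. In a fit with replicate as a block MT-TN fell by 0.86 (SE 0.11, adjusted p = 1.42e-04). MT-TP fell by 0.45 in that fit (SE 0.12, adjusted p = 0.0266), so 2 of 22 tRNAs were called there, beside 7.16% of all genes. MT-TP had 46.3, 41.8 and 39.9 CPM against 41.7, 29.5 and 24.6, with depleted replicate 1 at the level of the controls (without the block -0.42, SE 0.16, adjusted p = 0.192). Leaving out a single library was enough to call 1 of these: MT-TN without control replicate 3 (-1.19, adjusted p = 0.0322) and MT-TP without depleted replicate 1 (-0.66, adjusted p = 0.00369). Each of these fits called 1 of 22 tRNAs. Over all genes the fit without control replicate 3 called 198 higher and 268 lower of 28507. The fit without depleted replicate 1 called 551 higher and 1217 lower of 28428. MT-TC, MT-TY and MT-TL2 had log2 fold changes of -0.35, -0.26 and -0.63 in HCC1806, with adjusted p of 0.337, 0.51 and 0.382. Without the filter on low counts MT-TN (adjusted p = 1.62e-11) and MT-TL2 (0.0207) were called there, beside 3.04% of all genes. In HCC1806 2 of 22 tRNAs had groups without overlap, beside 16.6% of all genes. They were MT-TK for lysine (-0.64, adjusted p = 0.567) and MT-TS2 for serine (-0.76, adjusted p = 0.412), named after their values were seen, with at most 43 and 31 counts in a library. In MDA-MB-468 MT-TN had 274, 329 and 312 CPM against 260, 333 and 354, which put its change at 0.05 (log2, SE 0.30, adjusted p = 1). MT-TP was the one tRNA whose groups did not overlap in MDA-MB-468, beside 13.1% of all genes, at 30.1, 28.1 and 27.4 CPM against 20.7, 26.4 and 22.3 (-0.30, SE 0.16, adjusted p = 0.985). The difference between the lines in the change of MT-TN was 0.93 (SE 0.42, adjusted p = 0.564), and 0.90 (SE 0.16, adjusted p = 0.00892) with the block, a fit that called 0.957% of all genes.

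**Figure D4:**
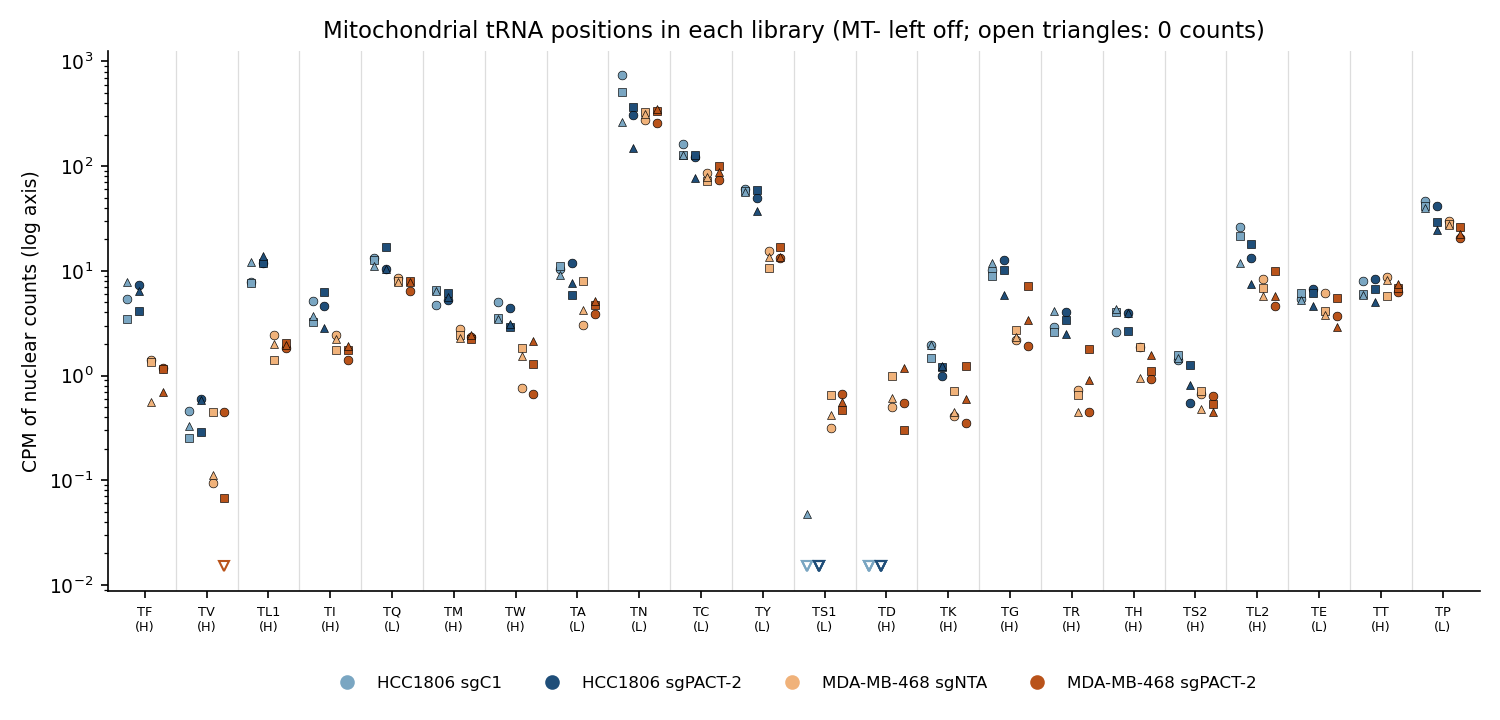
CPM of nuclear counts at each of the 22 mitochondrial tRNA positions in each library, on a log axis, ordered by position; colours are groups, filled marker shapes are replicates, and open triangles at the bottom stand for 0 counts. MT-TN is the highest in all 12 libraries, and MT-TS1 and MT-TD are at 0 in HCC1806 apart from 1 count in a control library.

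The summed tRNA counts of HCC1806 were 1118, 841 and 586 CPM in controls and 627, 687 and 370 in depleted cells, lower in all 3 pairs but overlapping (fold 0.661, exact permutation p = 0.3). Without MT-TN the log2 difference went from -0.60 to -0.28 and the groups no longer overlapped (exact permutation p = 0.10, the smallest possible). In MDA-MB-468 the sums were 457, 490 and 477 CPM against 406, 533 and 525 (fold 1.02, exact permutation p = 1). The 8 light-strand-coded tRNAs together held more counts than the 14 heavy-strand-coded ones in every library. The ratio of their summed counts was 12.7, 10.8 and 6.78 in HCC1806 controls and 7.05, 8.21 and 5.23 in depleted cells, which overlapped (exact permutation p = 0.3) but was lower in all 3 pairs (exact sign-flip p = 0.25, the smallest possible). Without MT-TN the log2 difference of this ratio went from -0.54 to -0.21. In MDA-MB-468 the ratio of all 22 was 12.7, 15.7 and 16.1 against 16.2, 13.3 and 16.3 (exact permutation p = 0.5).

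Control cells of the lines were then compared, where cell line and control guide cannot be told apart. This background was broad: 73.9% of all tested genes passed, and the median log2 difference, MDA-MB-468 minus HCC1806, was -0.22 over all genes. Of the 13 mRNAs 8 were lower in MDA-MB-468 and 1 was higher, with a median of -0.50. The 8 were MT-ND1, MT-ND2, MT-ND3, MT-ND4L and MT-ND4 of complex I, MT-CO1 of complex IV, and MT-ATP8 and MT-ATP6 of complex V. MT-ND4 had 28578, 22398 and 25633 CPM in HCC1806 and 14974, 14004 and 12220 in MDA-MB-468, with a wide gap between the groups (log2 difference -0.89, SE 0.13, adjusted p = 7.14e-06). MT-ND1 and MT-ND2 differed by -0.82 and -0.87 and MT-ATP8 by -0.92. With the TMM scaling, though not with library size alone, MT-CO3 was the one higher mRNA, at 5764, 5599 and 6700 CPM in HCC1806 against 8521, 7835 and 7335 (0.39, SE 0.11, adjusted p = 0.00406). MT-ND5, MT-ND6, MT-CO2 and MT-CYB did not pass, with values from -0.23 to 0.13, and MT-CYB went from 0.13 to -0.23 on the scale of library size alone. That scale moved the median of all genes to -0.60 and the split of all calls from 9430 higher and 10659 lower to 7451 and 12933. The mRNA median was -0.84 on that scale, 11 mRNAs were lower and 0 higher, beside 75.2% of all genes called, and MT-CO3 had 0.04 (adjusted p = 0.764). The mRNAs gained as lower there were MT-CO2 (-0.42), MT-ND5 (-0.58) and MT-ND6 (-0.47). Relative to the median of all genes, the mRNA median was -0.28 in the main scaling and -0.24 in this one. The call of MT-ND3 (-0.30) ended in 4 of the 6 fits that left out 1 control library of either line, those without replicates 1 and 3 of each. The summed mRNAs did not overlap (fold 0.724, exact permutation p = 0.10, adjusted 0.40).

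Among the tRNAs 17 of 22 were called lower in MDA-MB-468 controls, beside 10659 of all 27177 genes. The median was -1.12 over all 22, where that of all genes was -0.22. The 2 called higher, MT-TD and MT-TS1, passed the filter on low counts through MDA-MB-468 alone, so their calls add no support, and they are given by their counts. MT-TY had 60.4, 57.9 and 56.4 CPM in HCC1806 and 15.4, 10.7 and 13.7 in MDA-MB-468 (log2 difference -2.13, SE 0.17, adjusted p = 3.09e-09). MT-TL1 for leucine, at the end of the rRNA genes, differed by -2.25, MT-TF for phenylalanine by -2.34, MT-TG for glycine by -2.10 and MT-TM, the methionine tRNA, by -1.23. MT-TC and MT-TP were lower by less (-0.82 and -0.58), MT-TL2 had -1.52, and the call of MT-TN (-0.72, adjusted p = 0.0366) was lost with DESeq2 (0.0564). Its call was also lost without control replicate 1 of HCC1806 (-0.37), without control replicate 2 of HCC1806 (-0.71) and without any 1 of the 3 MDA-MB-468 controls (-0.65 to -0.78). MT-TD and MT-TS1 were singled out after their values were seen. MT-TD had 0 counts in all 6 HCC1806 libraries and 127 counts over the 6 of MDA-MB-468. MT-TS1 had 1 count in HCC1806, in control replicate 3, and 95 in MDA-MB-468. Against a floor of 3 counts per library, a limit for counting error only, MT-TD was at least 4.90-fold higher in MDA-MB-468 controls than in those of HCC1806. Both positions lie between MT-CO1 and MT-CO2, and MT-CO2, the lower of these mRNAs, had at least 177763 counts in every library. Whether nuclear copies took up reads from these 2 positions was not tested.

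Near-identical nuclear copies could share reads with these genes. On chromosome 1 of GRCh38 a block of such pseudogenes holds MTND1P23 (629062 to 629433), MTND2P28 (629640 to 630683), MTCO1P12 (631074 to 632616) and MTATP6P1 (633696 to 634376). Their sequences matched the mitochondrial genes at 99.1%, 98.4%, 98.6% and 98.5% of aligned bases. MTND1P23 had 476 to 687 CPM in HCC1806, whereas MDA-MB-468 had 0.0559 to 0.346. MTCO1P12 had 490 ± 81.7 CPM in HCC1806 controls against 11.2 ± 2.68 in those of MDA-MB-468 (SD, n = 3), and MTATP6P1 had 395 ± 71.7 against 37.1 ± 5.06. MTND2P28 differed less, with 20.4 ± 5.35 against 9.01 ± 2.21 CPM. The counts of the first 3 were at most 5.62% of those of MT-ND1, 1.17% of those of MT-CO1 and 4.15% of those of MT-ATP6. Whether the reads came from the nuclear copy or from a mitochondrial genome that differs from the reference was not tested. Only copies of mRNA genes were examined. MT-TS1 and MT-TD lie between MT-CO1 and MT-ATP6 on the mitochondrial map. Whether the nuclear stretch between MTCO1P12 and MTATP6P1 shared reads with them was not tested. None of the 4 copies passed between depleted and control cells of either line.

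Nuclear genes that serve the mitochondrial genome were described from lists, which were chosen with earlier results of these data known. Neither POLRMT nor TFAM, which packages the DNA and helps start transcription, passed in HCC1806 (log2 fold changes 0.11 and -0.09, adjusted p = 0.778 and 0.825) or in MDA-MB-468 (-0.05 and 0.04). The mRNA-stabilising partners LRPPRC and SLIRP had -0.25 and 0.17 in HCC1806 (adjusted p = 0.264 and 0.818) and 0.04 and -0.29 in MDA-MB-468, and PNPT1 had -0.21 and 0.03. SUPV3L1, the helicase that unwinds double-stranded mitochondrial RNA for decay, had 0.00 in HCC1806 (adjusted p = 1) and 0.29 in MDA-MB-468 (SE 0.10, adjusted p = 0.599). With MDA-MB-468 fitted alone SUPV3L1 (adjusted p = 0.0199), TRIT1 (0.0104) and MTO1 (0.039), the latter 2 enzymes that modify tRNAs, rose as 3 of 26 genes for mitochondrial RNA processing and decay, beside 1.48% of all genes in that fit. In the joint fit 0 of these 26, 0 of 16 genes for transcription and DNA maintenance and 0 of 9 biogenesis regulators were called in either line. At an unadjusted p under 0.05 edgeR had 2, 1 and 0 of them in HCC1806 and 3, 0 and 0 in MDA-MB-468, the same counts as in DESeq2.

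Nuclear subunits of the respiratory complexes were called in HCC1806 as follows. Of 85 tested nuclear subunits of complexes I to V, 5 fell and 0 rose, beside 2.48% of all genes, and 77 fold changes were negative with a median of -0.24. Complex II, which has no mitochondrially encoded subunit, held 2 of the 5, and without it 3 of 81 (3.70%) fell. With nuclear library size alone 2 fell and the median was -0.13, where that of all genes was 0.12. SDHD had 55.5 to 66.8 CPM in controls and 30.8 to 46.4 in depleted libraries, without overlap. It fell by 0.64 on the log2 scale (SE 0.13, adjusted p = 0.0155). The membrane anchor it forms with SDHC in complex II lost SDHC transcript as well (-0.43, adjusted p = 0.0336). The ATP synthase had 3 subunits that fell: ATP5F1A by 0.48 (adjusted p = 0.0122), ATP5F1B by 0.43 (0.0192) and ATP5MC3, which codes for the c ring, by 0.46 (0.0375). With the replicate block 16 of the 85 fell, beside 7.16% of all genes, among them UQCRC2 of complex III (adjusted p = 0.0465), COX7B (0.02) and COX6A1 (0.0141) of complex IV, and NDUFC2 (0.0178), NDUFA4 (0.0294) and NDUFS7 (0.0373) of the complex I list. DESeq2 called 11, each lower, beside 4.6% of all genes. With HCC1806 fitted alone 0 of them were called, with 20 at an unadjusted p under 0.05. Of 83 mitochondrial ribosomal proteins 2 (2.41%) fell in HCC1806, near the share of all genes, MRPL11 (-0.53, adjusted p = 0.0321) and MRPL50 (-0.65, adjusted p = 0.0446), and 73 were negative with a median of -0.16, or -0.03 with library size alone. MRPL30 joined them with the block (adjusted p = 0.0269), a fit that called 7.16% of all genes. In MDA-MB-468 0 of 85 subunits and 0 of 83 ribosomal proteins were called, with 3 and 0 at an unadjusted p under 0.05 in edgeR and 2 and 0 in DESeq2, and medians of -0.12 and -0.06. COX6C passed there with that line fitted alone (adjusted p = 0.0267), a fit that called 1.48% of all genes. The change differed between the lines for 0 of the 85 subunits and 0 of the 83 ribosomal proteins, with 9 and 5 at an unadjusted p under 0.05 in edgeR and 8 and 6 in DESeq2.

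Between control cells most of these nuclear lists lay above the median of all genes, -0.22, while the medians of the mitochondrial mRNAs and tRNAs lay below it. Of the 85 nuclear subunits 63 were higher and 10 lower in MDA-MB-468, with a median of 0.91 on the log2 scale. With library size alone, where all genes had -0.60, the subunits had 0.56. The mitochondrial ribosomal proteins had 66 of 83 higher and 6 lower (median 1.04), and RNA processing and decay 20 of 26 higher and 2 lower (median 0.84). Transcription and DNA maintenance had 6 higher and 7 lower of 16, with a median of -0.25. These shares, from 81.2% called in that last list to 86.7% in the ribosomal proteins, stand beside 73.9% of all genes.

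**Figure D5:**
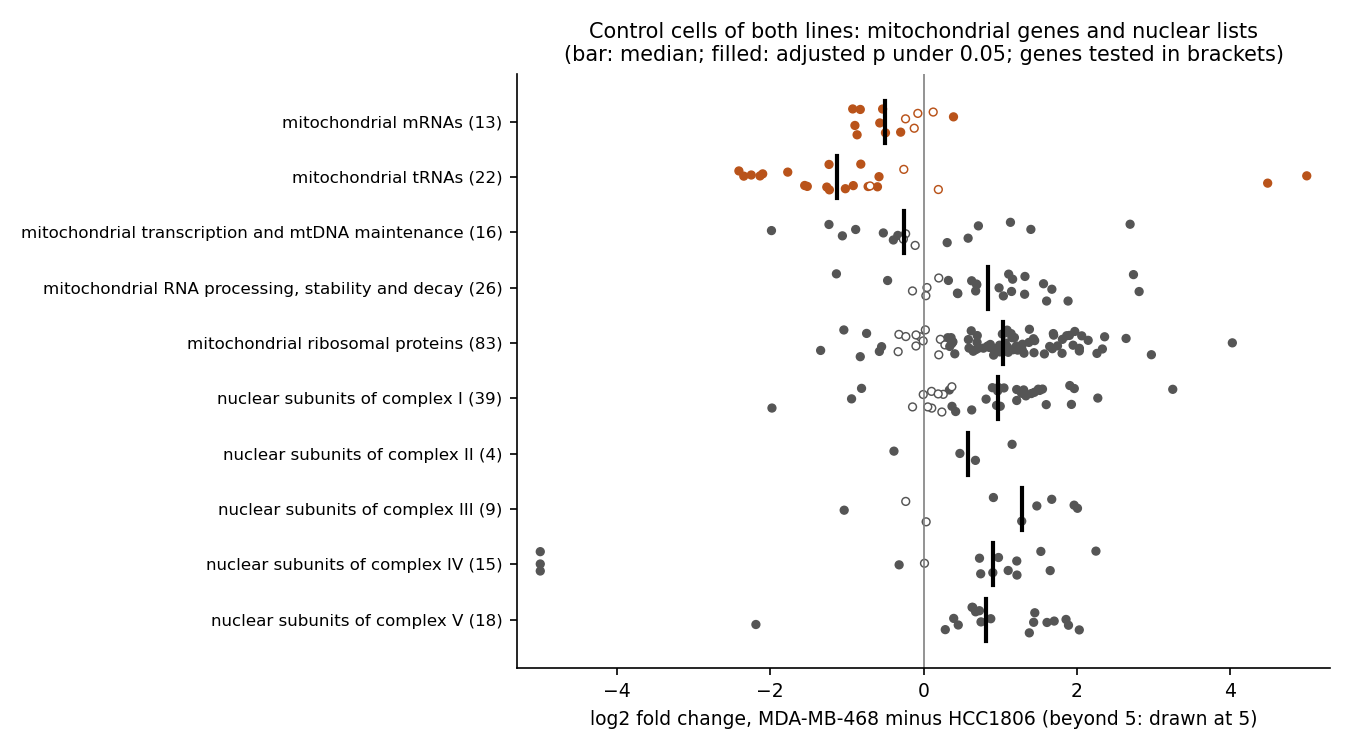
Log2 differences between control cells of MDA-MB-468 and HCC1806 for the mitochondrial mRNAs and tRNAs (brown) and for nuclear lists (grey); bars are medians, filled points passed adjusted p under 0.05, and values beyond 5 are drawn at 5. The medians are -0.50 for the mRNAs and -1.12 for the tRNAs, and from 0.58 to 1.28 for the nuclear subunits of the 5 complexes.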

How the data were processed

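The authors deposited whole-number read counts for each Ensembl gene and library, without normalization. The submitters' processing notes name Trimmomatic 0.36, STAR 2.5.2b, featureCounts, Subread 1.5.2 and GRCh38, without their settings. Gene types and positions came from GENCODE 29 by Ensembl ID (56898 of 57500 genes).

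Counts were tested with edgeR 4.0.16 in R 4.3.3 (glmQLFit and glmQLFTest, two-sided, 1 coefficient per group, all 12 libraries). Library sizes were the nuclear counts times TMM factors of nuclear genes. The default filterByExpr left 27177 genes, over which p-values were adjusted by Benjamini-Hochberg, and called means adjusted p under 0.05. Sums and ratios were compared by exact permutation tests. Short sequences were aligned with Biopython 1.88, and figures were drawn with matplotlib 3.10.9. Alternatives were DESeq2 1.42.0, other scalings and filters, each line alone, a replicate block, and leaving out each library.

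The text names all 13 mRNAs, the 5 tRNAs with the highest counts per kb, the 5 with the smallest adjusted p between control cells, PRKRA and 6 nuclear genes. Of the 3 members of each nuclear list with the smallest adjusted p in each line, it names those called in at least 1 fit. The members and lists were chosen with earlier results of these data known. The rRNA comparisons that had been planned could not be run.

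The deviations of same-numbered control and depleted libraries from their group means correlated at 0.345, 0.200 and 0.106 in HCC1806, which was taken as pairing. Libraries of unlike number ran from -0.330 to 0.230 there, the highest being control replicate 2 with depleted replicate 3. In MDA-MB-468 same-numbered libraries correlated at 0.0774, 0.0471 and 0.0755, and those of unlike number at -0.0721 to -0.00143. Pairing was not assumed in that line. The choice was made from these same data. On simulated data with 200 genes changed by a log2 fold of 1 among 27177, the test found 78.5% of them for HCC1806, where 8.19% of its calls were false. For MDA-MB-468 these values were 75% and 2.6%. The changed genes were nuclear with a mean of at least 50 counts, and the spread was that of the joint fit. Recovery of smaller changes, such as those of the mitochondrial mRNAs, was not simulated.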

Additional observations from a re-analysis of the deposited data

How the results depend on the processing

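Counting without strand, small groups and shallow tRNA positions limit these results: with 3 libraries a group no exact test of a sum can pass 0.05 within a line. Between control cells, beside the changes to MT-CO3, MT-ND3, MT-TN, MT-CO2, MT-ND5 and MT-ND6 given in the report, MT-ND5 was also called without the filter (-0.23, adjusted p = 0.035) and without HCC1806 control replicate 2 (-0.35), and MT-TE with library size alone (-0.61). MT-TI was lost without HCC1806 control replicate 1 (-0.74, adjusted p = 0.0504), and MT-ND3 and MT-TN at an adjusted p under 0.01. A mean of at least 50 counts left 16 tRNAs tested, 14 of them called lower, beside 5292 of 15918 genes. The cause of the changes below was not tested.

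No mRNA was called in HCC1806 under any alternative, and in MDA-MB-468 the count of 0 called mRNAs became 1 without the filter and 2 with the line fitted alone. Called tRNAs in HCC1806 numbered 2 with the replicate block, 2 without the filter and 0 to 1 leaving out 1 library. The difference between the lines was called for 1 tRNA, MT-TN, with the block and for 1 without the filter. Called nuclear respiratory subunits in HCC1806 numbered 16 with the block, 11 in DESeq2, 8 without the filter, 2 with library size alone, 0 with the line alone, 0 at an adjusted p under 0.01, and 0 (without control replicate 2) to 15 (without depleted replicate 1) leaving out 1 library. Called ribosomal proteins were 1 with RLE size factors, 1 with library size alone, 0 with the line alone, 0 at 0.01, and 0 (without control replicate 1) to 5 (without depleted replicate 1). With MDA-MB-468 alone 3 RNA processing genes and 1 respiratory subunit were called.

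The mRNA sum over both lines was -0.15 (exact permutation p = 0.155) without TMM, -0.15 (0.16) against protein-coding nuclear counts and -0.23 (0.125) with the replicate block, and -0.28 to -0.19 leaving out 1 library. Its difference between the lines ran from -0.16 to 0.032. The tRNA sum in MDA-MB-468 ran from -0.041 to 0.16 and the light to heavy tRNA ratio from -0.064 to 0.14. The MT-ND6 ratio ran from -0.17 to 0.072 in HCC1806 and from -0.048 to 0.075 over both lines, where it was -0.068 against MT-CYB and -0.0092 against 8 mRNAs, and -0.24 against MT-CYB between control cells.

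Values near 0 changed sign. With library size alone HCC1806 had MT-CO3 at 0.10, SUPV3L1 at 0.13 and TFAM at 0.035, MDA-MB-468 had MT-TL2 at 0.0035, and MT-CYB was -0.23 between control cells. SUPV3L1 was 0.019 with HCC1806 alone. Leaving out 1 library, HCC1806 ranged from -0.47 to 0.017 for MT-ATP8, -0.12 to 0.055 for MT-CO3, -0.073 to 0.11 for MT-CYB, -0.0082 to 0.10 for MT-ND1, -0.021 to 0.29 for SLIRP and -0.050 to 0.062 for SUPV3L1. MDA-MB-468 ranged from -0.43 to 0.17 for MT-TL2, -0.040 to 0.17 for MT-TN, -0.029 to 0.11 for LRPPRC, -0.0060 to 0.084 for PNPT1, -0.15 to 0.025 for POLRMT and -0.022 to 0.086 for TFAM. MT-CO2 between control cells ranged from -0.14 to 0.020.

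Over all genes, the 675 calls in HCC1806 became 1945 with the block, 1351 without the filter, 1249 in DESeq2, 159 at an adjusted p under 0.01 and 74 with the line alone, and the 46 in MDA-MB-468 became 317 with the line alone, 143 without the filter, 115 in DESeq2 and 19 at 0.01. In MDA-MB-468, where the numbers were not taken as pairs, the block called 102 genes instead of 46 and 0 mitochondrial genes. Other settings for the rRNAs were not run.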
